A study of Mus musculus with 19 samples.

Results

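CD8 T cells were compared with CD4 T cells from the same kind of tumour in mice that had lost Tet2 in T cells. The comparison used every library of that genotype, chosen by its label: 4 libraries of CD8 cells and 3 of CD4 cells, 7 of the 19 in the series. Among the 5 animals behind them, 2 were sampled for both cell types (CD8 replicate 3 with CD4 replicate 1, and CD8 replicate 4 with CD4 replicate 3). The pairing rests on a library number that the labels repeat, taken here as the number of the animal. Choosing the libraries used no measured value, so the difference between the cell types could be tested.

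All mice carried floxed Tet2, the controls included. In the knockouts described here (Cd4CreTet2KO) the recombinase Cre was driven by the Cd4 promoter. That promoter is also active in thymocytes that bear CD4 and CD8 together, from which both lineages arise, so CD8 cells of this genotype are targeted too, while other immune cells of the host keep Tet2. The remaining genotypes of the series serve as references: the control without Cre (Tet2fl/fl, 3 CD8 and 3 CD4 libraries) and a knockout across blood cells (Vav1CreTet2KO, 3 and 3). Colorectal cancer cells (AKTPM/LOH, marked with Venus) had been injected into the spleen, and the liver metastases were taken at day 30. After a density gradient and an enrichment with magnetic CD45 beads, antibodies to CD45, CD3ε, CD4 and CD8α served to sort the T cells. The labels number the samples of a group as biological replicates. The labels give neither age nor sex of the mice.

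CD8 T cells recognise peptides on MHC class I and kill the cells that present them, by releasing perforin and granzymes from cytotoxic granules. CD4 T cells recognise peptides on MHC class II. They divide into helper cells, which steer other leukocytes through cytokines and CD40 ligand, and regulatory T cells, which carry the transcription factor FOXP3 and restrain immune responses. In tumours both lineages can acquire inhibitory receptors such as PD-1 under persistent antigen, the state called exhaustion. TET2 oxidises methylated cytosine, and its loss in blood cells is common in clonal hematopoiesis, the setting named in the title of the series.

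Reads on genes numbered 13272000 to 20327809 in the CD8 and 15543888 to 17575534 in the CD4 libraries of this genotype, against 707866 to 20327809 in the series. Levels are given as RPKM (reads per kilobase, relative to all reads of the library), in the order of replicates 1 to 4 for CD8 and 1 to 3 for CD4. The 2 cell types were deposited as separate tables, in which each library is scaled to its own total, so that table and cell type cannot be told apart. Differences are CD8 minus CD4 on the log2(RPKM + 1) scale, which understates the change of weakly expressed genes. A gene is called when the adjusted p of a limma fit to all 19 libraries is under 0.05. Because RNA came from sorted bulk cells, fewer cells of a type and less RNA per cell cannot be told apart.

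Tet2, the targeted gene, stood at 7.57, 4.403, 3.02 and 5.02 RPKM in CD8 replicates 1 to 4 and 4.53, 7.28 and 4.80 RPKM in CD4 replicates 1 to 3. The groups overlapped, and the difference was -0.15 (SE 0.33, limma adjusted p = 0.9995). Its sign turned without CD8 replicate 3 (0.02) or CD4 replicate 2 (0.03). Control levels were 7.64, 8.06 and 6.57 RPKM in CD8 and 4.23, 7.02 and 3.87 RPKM in CD4 libraries. Since floxed exons are only a stretch of the transcript, this whole-gene level checks neither label.

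The genes of the sort followed the labels. Cd8a, which encodes the CD8α chain, stood at 103, 99.9, 119 and 117 RPKM in CD8 replicates 1 to 4 and 0.00839, 0.0278 and 0.0488 RPKM in CD4 replicates 1 to 3. Cd8b1, the partner chain, stood at 128, 146, 182.5 and 135 RPKM in CD8 and 4.94, 1.78 and 1.75 RPKM in CD4 libraries. Cd4 itself stood at 114, 84.8 and 89.7 RPKM in CD4 and 7.68, 2.27, 0 and 0.0158 RPKM in CD8 libraries, so that CD8 replicates 1 and 2 carried some Cd4 transcript while the other CD8 libraries had next to none. Cd3e, the target of the CD3ε gate, and Ptprc, which encodes CD45, were not called (differences 0.34 (limma adjusted p = 0.853) and 0.25 (limma adjusted p = 0.934)).

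Markers of cells other than T cells set CD8 replicates 1 and 2 apart. Summed over 16 macrophage and monocyte genes, the level was 362.7, 193.5, 8.417 and 10.47 RPKM in CD8 libraries and 19.22, 6.965 and 12.44 RPKM in CD4 libraries. None of the 16 was at 0 in CD8 replicates 1 and 2, whereas 9 and 5 were at 0 in CD8 replicates 3 and 4, and 4, 4 and 6 in the CD4 libraries. In the other 12 libraries of the series the sum ran from 5.942 to 120.6 RPKM. Lyz2, which encodes the lysozyme of macrophages, showed the same split, at 172, 88.2, 2.06 and 2.82 RPKM in CD8 and 3.89, 0.414 and 1.55 RPKM in CD4 libraries. Neutrophil genes summed to 111.8, 67.58, 1.486 and 0.4917 RPKM in CD8 libraries and to 1.246, 0.5867 and 3.208 RPKM in CD4 libraries. The gate on CD3ε should remove such cells. Dendritic cell and MHC class II genes were high in all CD8 libraries, at a sum of 3563, 1482, 450.1 and 870.8 RPKM, above the 307.9, 126.1 and 238.7 RPKM of the CD4 libraries. B and plasma cell sums were 251.4, 131.1, 22.38 and 61.44 RPKM in CD8 and 39.42, 67.13 and 58.24 RPKM in CD4 libraries. They overlapped between the cell types, with CD8 replicates 1 and 2 the highest. The part of these markers in the results was not tested, and where the count of called genes over all genes or in a list below changed without CD8 replicates 1 and 2, that count or the genes that lost their call are also given, an alternative planned with their macrophage transcripts already known.

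**Figure D1:**
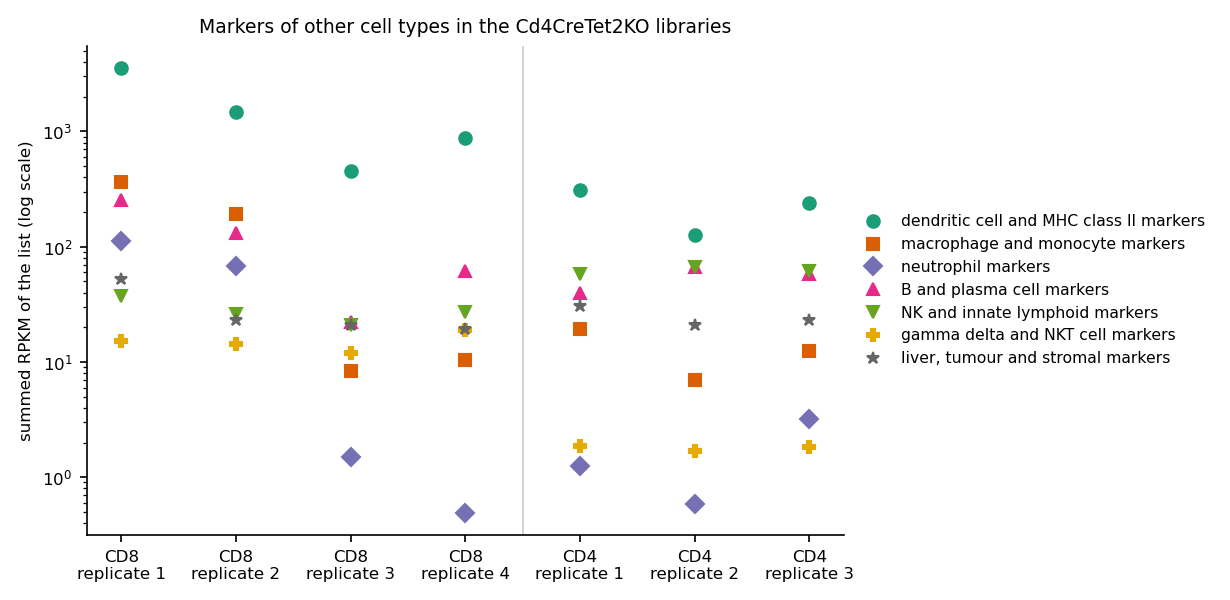
Summed RPKM (log scale) of marker lists of other cell types in each of the 7 Cd4CreTet2KO libraries, 1 symbol per list and library. Macrophage sums of 362.7 and 193.5 RPKM in CD8 replicates 1 and 2 stand above the 8.417 and 10.47 RPKM of CD8 replicates 3 and 4.

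Of 25639 genes in the tables, 9719 reached at least 1 RPKM in at least 3 of the 7 libraries and were tested. Some, such as Klrg1, Il1rl1, Ccdc184 and Batf3, passed this filter through the libraries of 1 cell type alone. Passing was thus not independent of the difference, and the adjusted p of such genes does not account for it. CD8 cells were higher for 95 of them (0.977% of those tested) and CD4 cells for 113 (1.16%). Every CD8 library lay above every CD4 library for 649 genes (6.68%), and every CD4 library above every CD8 library for 1114 (11.5%). These shares are the ones to hold list counts against. The difference was negative for 5267 of the 9719 tested genes. A gene on several lists is counted in each. The median difference of all tested genes was -0.04 in Cd4CreTet2KO, 0.046 in Tet2fl/fl and 0.199 in Vav1CreTet2KO mice, the values to hold list medians against. Without the shallowest library (CD4 Vav1CreTet2KO replicate 1) the last of these was -0.001. Without CD8 replicates 1 and 2, 76 genes were called, 34 higher in CD8 and 42 higher in CD4, and 75 of them were among the 208. With the animal as a fixed block, which leaves the comparison to the 2 animals that gave both cell types, 43 were called, 41 of them among the 208. CD8 replicate 1 was the highest of the 4 CD8 libraries for 52 of the 95 genes higher in CD8 (54.7%) and for 45.5% of all tested genes. Single libraries moved the total as well: 136 genes were called without CD8 replicate 2, 119 without CD4 replicate 1, 101 without CD4 replicate 2 and 105 without CD4 replicate 3.

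**Figure D2:**
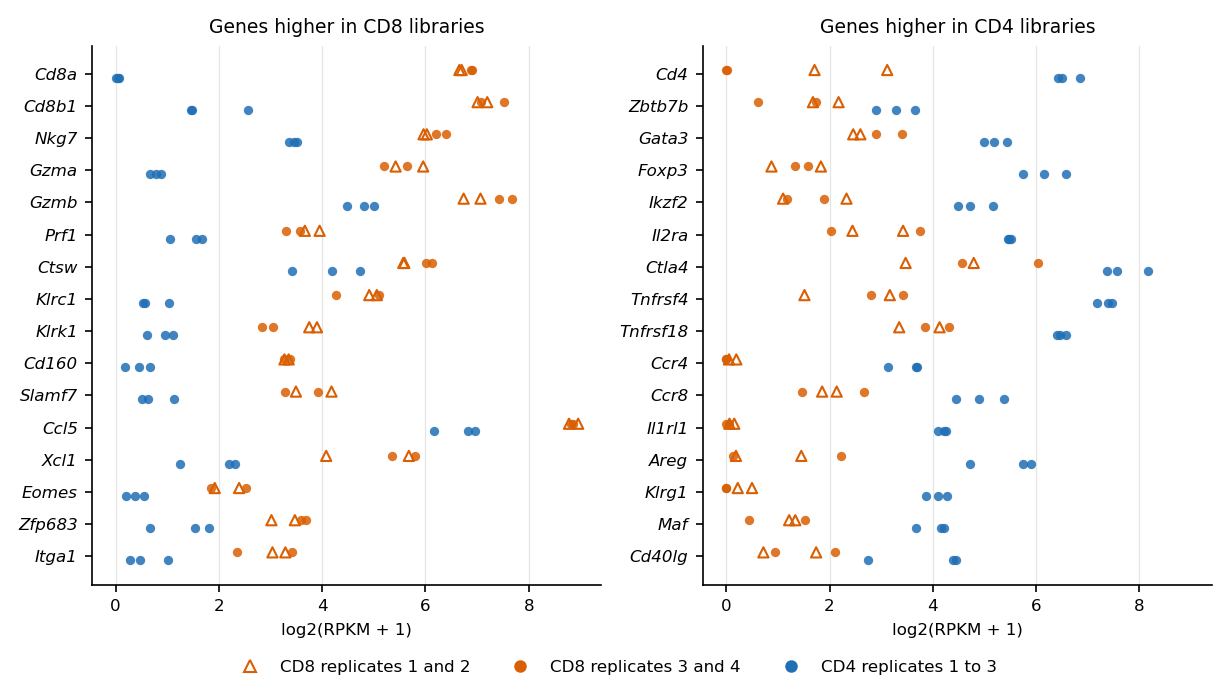
Level as log2(RPKM + 1) of 32 genes in each library, 1 symbol per library, with open triangles for CD8 replicates 1 and 2. Gzma lies at 35.8 to 61.1 RPKM in CD8 and 0.582 to 0.844 RPKM in CD4 libraries, and Foxp3 at 0.836 to 2.56 and 52.6 to 94.4 RPKM.

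Of 24 listed cytotoxic granule genes 17 were tested, and 6 were called, all higher in CD8. In 11 every CD8 library lay above every CD4 library, and in 2 the reverse. Over all tested genes 0.977% were called higher in CD8, 6.68% had every CD8 library above, and 11.5% the reverse. The median difference of the 17 was 1.02, beside 1.57 in Tet2fl/fl and 1.47 in Vav1CreTet2KO mice. Gzma, the granzyme with trypsin-like specificity, stood at 61.1, 41.9, 35.8 and 49.0 RPKM in CD8 replicates 1 to 4 and 0.731, 0.844 and 0.582 RPKM in CD4 replicates 1 to 3. All CD8 libraries lay far above all CD4 libraries, in which the gene was near the floor of the filter, and the difference was 4.78 (SE 0.63, limma adjusted p = 0.00017). Nkg7, a membrane protein of cytotoxic granules, stood at 61.4, 64.2, 83.8 and 73.2 RPKM in CD8 and 10.4, 9.99 and 9.22 RPKM in CD4 libraries. It varied little within either cell type, and the difference was 2.71 (SE 0.24, limma adjusted p = 2.03e-06).

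Gzmb, which encodes the granzyme that cleaves caspases, was also read in CD4 cells, at 31.0, 21.3 and 27.1 RPKM in CD4 and 106, 133, 170.0 and 205 RPKM in CD8 libraries. Both groups were clear of zero and did not overlap, with a difference of 2.46 (SE 0.48, limma adjusted p = 0.00671) and an adjusted p of 0.0537 without CD4 replicate 2. Prf1, the pore-forming perforin, stood at 14.5, 11.7, 8.88 and 10.8 RPKM in CD8 and 1.08, 1.95 and 2.20 RPKM in CD4 libraries. Its CD8 levels were lower than those of Gzma and Gzmb on this scale per length, the groups did not overlap, and the difference was 2.19 (SE 0.53, limma adjusted p = 0.0304). The call on Prf1 was lost with any of several libraries left out, with a limma adjusted p of 0.0613 to 0.158 without any 1 of CD8 replicates 1, 2 and 4 or any 1 of CD4 replicates 1, 2 and 3, and the limma adjusted p was 0.329 without CD8 replicates 1 and 2 and 0.158 with the animal as a block. Ctsw, a cathepsin of cytotoxic lymphocytes, differed by 1.72 (limma adjusted p = 0.00832), with a limma adjusted p of 0.0942 without CD4 replicate 2. Fasl, the death ligand that engages FAS, stood at 15.2, 11.2, 11.1 and 28.8 RPKM in CD8 and 5.75, 4.08 and 4.89 RPKM in CD4 libraries, with CD8 replicate 4 the highest, and differed by 1.48 (limma adjusted p = 0.0358).

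The 4 negative differences among the 17 tested genes, named here for that reason, belonged to Stx11, Rab27a, Unc13d and Srgn. Stx11, a syntaxin of granule fusion, stood at 18.6, 13.8 and 16.2 RPKM in CD4 and 5.61, 2.97, 4.24 and 8.83 RPKM in CD8 libraries, with a difference of -1.497 (limma adjusted p = 0.0894). Rab27a, Unc13d and Srgn, which dock, prime and pack granules, had differences of -0.58, -0.36 and -0.46, none of them called by limma. Among genes below the filter, Gzmk read 3.738, 1.512, 0.628 and 0.1414 RPKM in CD8 and 0, 0.2039 and 0 RPKM in CD4 libraries. When CD8 replicates 1 and 2 were left out, 4 cytotoxic genes were called. With the animal as a block 4 of the 6 kept their call and the others had limma adjusted p from 0.158 to 0.448.

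The promoters of 4 called CD8 genes, picked because their windows hold the RUNX core, are shown since RUNX3 and the T-box factors are known regulators of cytotoxic genes, and both were searched for by their letters. The sequences come from RefSeq on GRCm38.p6 and run 5′ to 3′ over 300 bases each, most of them before the start site. Capitals mark the RUNX core TGTGGT or its reverse complement ACCACA, and the T-box half-site GGTGTGA or its reverse complement TCACACC. Both strands were searched, and no match overlapped another.
Prf1 (chr10:61297586-61297885, plus strand): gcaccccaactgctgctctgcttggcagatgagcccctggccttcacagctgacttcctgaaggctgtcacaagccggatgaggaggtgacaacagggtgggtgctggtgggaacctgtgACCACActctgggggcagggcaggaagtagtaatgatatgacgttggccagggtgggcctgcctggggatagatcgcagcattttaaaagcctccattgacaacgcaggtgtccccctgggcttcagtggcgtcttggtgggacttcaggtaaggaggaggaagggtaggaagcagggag
Gzmb (chr14:56262285-56262584, minus strand): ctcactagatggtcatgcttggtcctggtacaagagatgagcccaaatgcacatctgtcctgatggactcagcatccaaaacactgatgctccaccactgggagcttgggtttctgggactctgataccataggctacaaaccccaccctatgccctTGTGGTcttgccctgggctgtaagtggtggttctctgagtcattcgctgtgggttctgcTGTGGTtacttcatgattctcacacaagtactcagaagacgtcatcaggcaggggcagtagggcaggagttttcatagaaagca
Nkg7 (chr7:43436888-43437187, plus strand): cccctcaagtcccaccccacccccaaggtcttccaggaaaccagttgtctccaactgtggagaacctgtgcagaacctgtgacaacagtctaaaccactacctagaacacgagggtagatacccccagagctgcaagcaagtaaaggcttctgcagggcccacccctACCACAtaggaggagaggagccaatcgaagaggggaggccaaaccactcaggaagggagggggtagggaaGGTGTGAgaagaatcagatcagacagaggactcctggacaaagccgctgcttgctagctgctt
Xcl1 (chr1:164935473-164935772, minus strand): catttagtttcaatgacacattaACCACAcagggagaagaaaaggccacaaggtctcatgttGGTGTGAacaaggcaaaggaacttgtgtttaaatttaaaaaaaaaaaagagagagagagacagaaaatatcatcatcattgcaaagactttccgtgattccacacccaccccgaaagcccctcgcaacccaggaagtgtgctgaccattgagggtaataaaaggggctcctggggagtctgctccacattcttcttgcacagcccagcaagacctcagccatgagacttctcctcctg
Prf1 held 1 RUNX core at -130 from the start site, Gzmb held 2 at -93 and -34, and Nkg7 held 1 at -83. Nkg7 also held a T-box half-site at -13, and Xcl1, a chemokine gene described below, held a RUNX core at -227 and a T-box half-site at -188. A promoter window was found for 7574 of the 9719 tested genes. The RUNX core occurred in 16.8% of all 32851 windows. Counted per gene, over any of its windows, it occurred in 15.1% of the 7574 tested genes. Among called genes with a window it occurred in 21 of 72 higher in CD8 and in 18 of 82 higher in CD4. It occurred in 10 of 15 cytotoxic genes tested and in 4 of the 5 called ones with a window. For NK receptors the counts were 9 of 17 tested and 4 of 9 called, and for regulatory T cell genes, called higher in CD4, 5 of 15 tested and 4 of 11 called. The T-box half-site occurred in 3.98% of all windows and, counted per gene, in 3.79% of the 7574 tested genes. Per gene, it occurred in 5.56% (4 of 72) of those called higher in CD8 and in 3.66% (3 of 82) of those called higher in CD4. Among tested list members it occurred in 3 of 15 cytotoxic genes, 2 of 17 NK receptor genes and 0 of 15 regulatory T cell genes. A match describes letters in a window and is neither a binding site nor a cause, and Runx3 itself was not called between the cell types.

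NK receptors and their adaptors formed the list with the most genes higher in CD8 cells. These receptors are known from natural killer cells and are also carried by activated CD8 T cells. Of 29 listed genes 23 were tested, 13 were called higher in CD8 and 1 in CD4, and 21 had every CD8 library above every CD4 library. Over all tested genes those shares were 0.977%, 1.16% and 6.68%. The median difference of the 23 was 1.81, beside 1.97 in Tet2fl/fl and 1.54 in Vav1CreTet2KO mice. Klrc1, which encodes the inhibitory receptor NKG2A, stood at 32.4, 29.1, 18.3 and 33.5 RPKM in CD8 replicates 1 to 4 and 1.05, 0.483 and 0.436 RPKM in CD4 replicates 1 to 3. The lowest CD8 level was that of replicate 3, still far above every CD4 library, and the difference was 4.13 (SE 0.31, limma adjusted p = 1.62e-07). Cd160, a receptor that binds HVEM, stood at 8.65, 9.21, 9.40 and 8.59 RPKM in CD8 and 0.139, 0.363 and 0.598 RPKM in CD4 libraries. Its CD8 levels were nearly equal across the 4 libraries, with a difference of 2.88 (SE 0.30, limma adjusted p = 1.20e-05).

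Klrk1, the activating receptor NKG2D, stood at 12.5, 13.9, 6.14 and 7.28 RPKM in CD8 and 0.949, 0.527 and 1.16 RPKM in CD4 libraries, higher in CD8 replicates 1 and 2 than in 3 and 4. Its difference was 2.49 (SE 0.34, limma adjusted p = 0.000251), and its limma adjusted p with the animal as a block was 0.164. Slamf7, a receptor of the SLAM family, stood at 17.1, 10.3, 8.77 and 14.2 RPKM in CD8 and 0.540, 0.428 and 1.18 RPKM in CD4 libraries and differed by 2.97 (limma adjusted p = 0.000986). Klrd1, the partner chain CD94, differed by 2.76 (limma adjusted p = 0.00219), and Crtam, an adhesion receptor, by 2.41 (limma adjusted p = 0.00227). Cd226, the activating partner of TIGIT, was present in both cell types at 14.6, 17.0, 17.5 and 20.2 RPKM in CD8 and 6.31, 3.42 and 6.39 RPKM in CD4 libraries. It differed by 1.55 (limma adjusted p = 0.00133), without overlap. Fcer1g, a signalling adaptor that myeloid cells also use, stood at 37.3, 19.4, 19.1 and 9.12 RPKM in CD8 and 3.55, 0.815 and 4.02 RPKM in CD4 libraries, highest in CD8 replicate 1, and differed by 2.53 (limma adjusted p = 0.0267). The Ly49 genes Klra5, Klra7 and Klra9 belong to a family of near-identical copies between which reads can be split, so their calls are uncertain. Klra5 was listed at 0 in every CD4 library, and its fitted difference is no bound.

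Klrg1 ran the other way. This receptor of terminally differentiated T cells, which effector regulatory T cells also carry, stood at 18.3, 13.7 and 16.3 RPKM in CD4 and 0.413, 0.168, 0 and 0 RPKM in CD8 libraries. All CD4 libraries were high, and CD8 replicates 3 and 4 were at 0. The difference was -3.90 (SE 0.67, limma adjusted p = 0.00207). The defining NK marker Ncr1 stood at 1.34, 3.38, 1.76 and 5.90 RPKM in CD8 and 0, 0.184 and 0 RPKM in CD4 libraries, with a difference of 1.82 (limma adjusted p = 0.0675), and Klrb1c, the NK1.1 antigen, at 1.79, 3.88, 3.67 and 3.33 RPKM in CD8 and 1.12, 0.405 and 0.275 RPKM in CD4 libraries. Summed NK and innate lymphoid markers came to 20.87 to 37.63 RPKM in CD8 and 58.32 to 66.19 RPKM in CD4 libraries, a list in which Gata3 and Il1rl1 are also genes of CD4 T cells. Gamma delta and NKT markers summed to 11.98 to 18.84 RPKM in CD8 and 1.674 to 1.849 RPKM in CD4 libraries. Most of the sum in CD8 libraries was Trgc2, a constant segment of the gamma chain with near-identical copies, at 10.8, 10.2, 8.89 and 11.9 RPKM in CD8 and 0.634, 0.0900 and 0.711 RPKM in CD4 libraries. Their part in the NK receptor result was not tested. After omission of CD8 replicates 1 and 2, 8 NK receptor genes were called higher in CD8 and 1 in CD4. Under the block for animal, 4 of the 14 kept their call, and the others had limma adjusted p from 0.0536 to 0.671.

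Among 14 effector transcription factors, all tested, 3 were called, all higher in CD8, with a median difference of 0.25. Eomes, a T-box factor of effector and memory CD8 cells, stood at 4.25, 2.79, 4.79 and 2.59 RPKM in CD8 and 0.291, 0.472 and 0.147 RPKM in CD4 libraries. The groups did not overlap, and the difference was 1.80 (SE 0.33, limma adjusted p = 0.00409). Zfp683, which encodes HOBIT, a factor of tissue-resident T cells, stood at 7.10, 10.1, 11.1 and 11.9 RPKM in CD8 and 1.89, 0.592 and 2.49 RPKM in CD4 libraries and differed by 2.11 (limma adjusted p = 0.017), with a limma adjusted p of 0.0527 to 0.155 without CD8 replicate 2 or any 1 of CD4 replicates 1 and 2. Batf3, a factor of dendritic cells and of activated T cells, stood at 4.91, 1.95, 1.73 and 4.04 RPKM in CD8 and 0, 0 and 0 RPKM in CD4 libraries. It was listed at 0 in each CD4 library. With each CD4 library set at the floor of 3 reads, CD8 libraries were at least 34.4-fold higher (limma adjusted p = 0.00133). The called dendritic cell genes described below include Batf3 too. In the fit lacking CD8 replicates 1 and 2, 1 of the factors was called. In the fit with a block for animal, none of the 3 was, at limma adjusted p from 0.129 to 0.313.

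Tbx21, which encodes T-bet, the master factor of interferon-γ production, stood at 13.5, 11.5, 18.8 and 28.6 RPKM in CD8 and 4.90, 4.09 and 7.88 RPKM in CD4 libraries. Every CD8 library lay above every CD4 library, yet the difference of 1.49 (SE 0.39, limma adjusted p = 0.0558) missed the threshold, while edgeR (adjusted p = 0.0157) and DESeq2 (adjusted p = 0.000205) called it. Runx3, the factor that fixes the CD8 lineage, stood at 31.4, 21.5, 23.3 and 26.4 RPKM in CD8 and 24.5, 16.5 and 25.7 RPKM in CD4 libraries, and the difference was 0.21 (SE 0.28, limma adjusted p = 0.9995). Zbtb7b, which encodes ThPOK, the factor that fixes the CD4 lineage, stood at 11.7, 6.44 and 8.79 RPKM in CD4 and 3.52, 2.20, 0.542 and 2.35 RPKM in CD8 libraries. It was higher in CD4, at -1.73 (SE 0.37, limma adjusted p = 0.0139), with a limma adjusted p of 0.0743 to 0.0997 without any 1 of CD4 replicates 1 and 3 and of 0.0808 with the animal as a block. Gata3, needed by developing CD4 cells and by type 2 helper cells, stood at 30.7, 42.0 and 35.5 RPKM in CD4 and 5.05, 4.498, 6.48 and 9.58 RPKM in CD8 libraries. No CD8 library reached the CD4 range, and the difference was -2.36 (SE 0.27, limma adjusted p = 3.29e-05).

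Secreted factors split by cell type. Of 26 listed cytokine and chemokine genes 17 were tested, with 2 called higher in CD8 and 2 in CD4, and a median of 0.34. Ccl5, a chemokine stored by cytotoxic T cells, stood at 439, 496, 463 and 449 RPKM in CD8 and 124, 70.9 and 112 RPKM in CD4 libraries. CD8 levels were nearly flat across libraries, and the difference was 2.20 (SE 0.38, limma adjusted p = 0.00239). Xcl1, the ligand by which CD8 cells attract XCR1-bearing dendritic cells, stood at 50.2, 15.9, 40.0 and 54.6 RPKM in CD8 and 3.97, 1.37 and 3.56 RPKM in CD4 libraries, lowest in CD8 replicate 2. The difference was 3.31 (SE 0.73, limma adjusted p = 0.0164), and the limma adjusted p was 0.0528 to 0.122 without CD8 replicate 1 or any 1 of CD4 replicates 2 and 3.

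Areg, an epidermal growth factor ligand that regulatory T cells release in damaged tissue, stood at 52.7, 25.2 and 58.9 RPKM in CD4 and 1.74, 0.139, 0.0990 and 3.70 RPKM in CD8 libraries. CD4 libraries were all high, and CD8 replicates 2 and 3 were near 0. The difference was -4.45 (SE 0.68, limma adjusted p = 0.00068). Ebi3, a subunit of interleukin-35 and interleukin-27, stood at 4.26, 7.27 and 6.80 RPKM in CD4 and 2.30, 2.36, 0.261 and 0.0851 RPKM in CD8 libraries, with CD8 replicates 1 and 2 above 3 and 4. It differed by -1.82 (limma adjusted p = 0.0475), with a limma adjusted p of 0.086 to 0.234 without any 1 of CD8 replicates 3 and 4 or any 1 of CD4 replicates 1, 2 and 3.

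Ifng, the cytokine of type 1 responses, stood at 24.04, 13.8, 32.3 and 76.2 RPKM in CD8 and 10.2, 4.67 and 12.7 RPKM in CD4 libraries. CD8 replicate 4 was the highest, and every CD8 library lay above every CD4 library. The difference was 1.71 (SE 0.46, limma adjusted p = 0.0615), while the limma adjusted p was 0.0224 without CD8 replicate 2 and 0.0196 without CD8 replicates 1 and 2. The count tools called Ifng (adjusted p = 0.0183 with edgeR and 0.000297 with DESeq2). Il10, an anti-inflammatory cytokine, stood at 3.09, 11.0 and 7.25 RPKM in CD4 and 1.17, 0.181, 0 and 0 RPKM in CD8 libraries and differed by -2.55 (limma adjusted p = 0.0558). Ccl1, Ccl3 and Ccl4, further chemokines, had differences of 3.43, 2.48 and 2.20, at limma adjusted p of 0.0654, 0.124 and 0.45. Once animals were blocked, 3 of the 4 called genes kept their call, while Xcl1 had a limma adjusted p of 0.16. Without CD8 replicates 1 and 2, 2 genes were called in each direction, 3 of them among the 4, and Xcl1 had a limma adjusted p of 0.0638.

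The largest group on the CD4 side consisted of genes of regulatory T cells. Of 22 listed genes 21 were tested, 15 were called, all higher in CD4, and 18 had every CD4 library above every CD8 library. Over all tested genes those shares were 1.16% and 11.5%. All 21 differences were negative, with a median of -2.17, beside -1.13 in Tet2fl/fl and -1.53 in Vav1CreTet2KO mice. Foxp3, the factor that defines these cells, stood at 2.56, 0.836, 1.52 and 1.99 RPKM in CD8 replicates 1 to 4 and 52.6, 94.4 and 69.7 RPKM in CD4 replicates 1 to 3. CD4 replicate 2 was the highest, and the difference was -4.75 (SE 0.46, limma adjusted p = 4.69e-06). Ikzf2, which encodes HELIOS and stabilises the lineage, stood at 21.5, 34.8 and 25.5 RPKM in CD4 and 4.03, 1.15, 1.27 and 2.71 RPKM in CD8 libraries. It followed the same order of CD4 libraries, with a difference of -3.17 (SE 0.37, limma adjusted p = 3.66e-05).

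Several surface receptors of regulatory T cells were among the largest differences. Tnfrsf4, the costimulatory receptor OX40, stood at 144, 177 and 166 RPKM in CD4 and 7.99, 1.86, 5.99 and 9.77 RPKM in CD8 libraries. CD8 levels were a small part of the CD4 levels in every library, and the difference was -4.62 (SE 0.75, limma adjusted p = 0.00133). Il1rl1, the receptor of interleukin-33, stood at 18.1, 16.2 and 17.6 RPKM in CD4 and 0.114, 0.0442, 0.0393 and 0 RPKM in CD8 libraries, close to 0 in each CD8 library, and differed by -4.12 (SE 0.41, limma adjusted p = 6.24e-06). Lrrc32, which encodes GARP and anchors latent TGF-β, stood at 7.52, 13.02 and 10.6 RPKM in CD4 and 0.384, 0.231, 0 and 0 RPKM in CD8 libraries and differed by -3.29 (limma adjusted p = 0.000218).

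Il2ra, the high-affinity chain of the interleukin-2 receptor, stood at 42.9, 43.3 and 44.8 RPKM in CD4 and 9.73, 4.44, 3.07 and 12.6 RPKM in CD8 libraries. The CD4 libraries were nearly equal, the CD8 libraries spread from replicate 3 to replicate 4, and the difference was -2.57 (SE 0.51, limma adjusted p = 0.00829). Ctla4, the inhibitory receptor that competes with CD28, stood at 165, 288 and 188.1 RPKM in CD4 and 26.7, 10.1, 22.6 and 64.8 RPKM in CD8 libraries. CD4 replicate 2 and CD8 replicate 4 were the highest of their groups. The difference was -2.99 (SE 0.59, limma adjusted p = 0.00744), with a limma adjusted p of 0.0629 without CD4 replicate 2 and of 0.136 without CD8 replicates 1 and 2. Tnfrsf18, the receptor GITR, stood at 86.7, 94.1 and 83.2 RPKM in CD4 and 16.5, 9.19, 13.3 and 18.9 RPKM in CD8 libraries and differed by -2.56 (limma adjusted p = 0.00181). Ikzf4, Tnfrsf9, Izumo1r and Icos were also called, at -2.02, -2.16, -2.17 and -2.02.

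Not called by limma were Nrp1, Capg, Il10, Itgae, Entpd1 and Nt5e, with differences from -2.55 (Il10) to -0.64 (Entpd1). Itgae and Entpd1 are also carried by tissue-resident and exhausted CD8 cells, and Itgae stood at 54.6, 64.7 and 67.8 RPKM in CD4 and 58.9, 21.2, 27.4 and 35.6 RPKM in CD8 libraries. When CD8 replicates 1 and 2 were left out, 9 of the list were called, and the median was -2.40. With the animal as a block 9 of the 15 kept their call and the others had limma adjusted p from 0.0603 to 0.324.

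Helper T cell genes were called in CD4 cells for 7 of 22 tested members out of 30 listed, with no call in the other direction and a median of -0.43. Cd40lg, the ligand by which helper cells license antigen-presenting cells, stood at 20.7, 5.66 and 19.9 RPKM in CD4 and 0.647, 2.34, 0.914 and 3.30 RPKM in CD8 libraries. CD4 replicate 2 was the lowest of its group and still above every CD8 library, with a difference of -2.48 (SE 0.45, limma adjusted p = 0.00337). Maf, a factor of follicular helper and regulatory cells, stood at 11.8, 17.6 and 16.8 RPKM in CD4 and 1.53, 1.33, 0.358 and 1.88 RPKM in CD8 libraries and differed by -2.88 (SE 0.34, limma adjusted p = 4.91e-05). Rora, a factor of type 17 helper cells, stood at 27.8, 24.7 and 26.3 RPKM in CD4 and 4.72, 4.13, 4.80 and 12.8 RPKM in CD8 libraries. CD8 replicate 4 was well above the other CD8 libraries but below every CD4 library, and the difference was -1.97 (SE 0.34, limma adjusted p = 0.00227).

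Bcl6, the factor of follicular helper cells, stood at 3.61, 3.29 and 5.80 RPKM in CD4 and 9.19, 4.15, 2.37 and 5.90 RPKM in CD8 libraries. The groups overlapped, and the difference of 0.21 (limma adjusted p = 0.9995) was not called. Its sign turned without CD8 replicate 1 (-0.05) and in 3 other settings. After omission of CD8 replicates 1 and 2, 3 helper genes were called. Under the block for animal, 5 of the 7 kept their call, and Rora and Ccr6 had limma adjusted p of 0.156 and 0.404.

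Costimulatory receptors and ligands leaned to the CD4 side, with 6 of 19 tested members called higher in CD4, 1 higher in CD8 (Cd226) and a median of -0.45. Of the 6, Tnfrsf4, Tnfrsf9, Tnfrsf18 and Icos are also counted among the regulatory T cell genes, and Icos and Cd40lg among the helper genes. Cd226 is also counted among the NK receptors. The remaining gene was Slamf1, a self-ligand receptor, at 20.4, 23.6 and 16.8 RPKM in CD4 and 3.35, 2.90, 5.62 and 6.29 RPKM in CD8 libraries. Its groups did not overlap, and it differed by -1.98 (limma adjusted p = 0.0044). Cd28, the main costimulatory receptor, stood at 25.9, 25.0 and 24.2 RPKM in CD4 and 11.3, 10.1, 13.8 and 16.8 RPKM in CD8 libraries. Every CD4 library lay above every CD8 library, but the difference of -0.92 (limma adjusted p = 0.371) was not called. Tnfrsf1b, a receptor of tumour necrosis factor, stood at 67.7, 71.2 and 68.4 RPKM in CD4 and 27.8, 16.6, 21.1 and 35.7 RPKM in CD8 libraries, with -1.47 (limma adjusted p = 0.191). In the fit lacking CD8 replicates 1 and 2, 1 gene was called higher in CD8 and 2 in CD4. In the fit with a block for animal, 4 of the 7 kept their call, and the others had limma adjusted p from 0.0603 to 0.43.

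**Figure D3:**
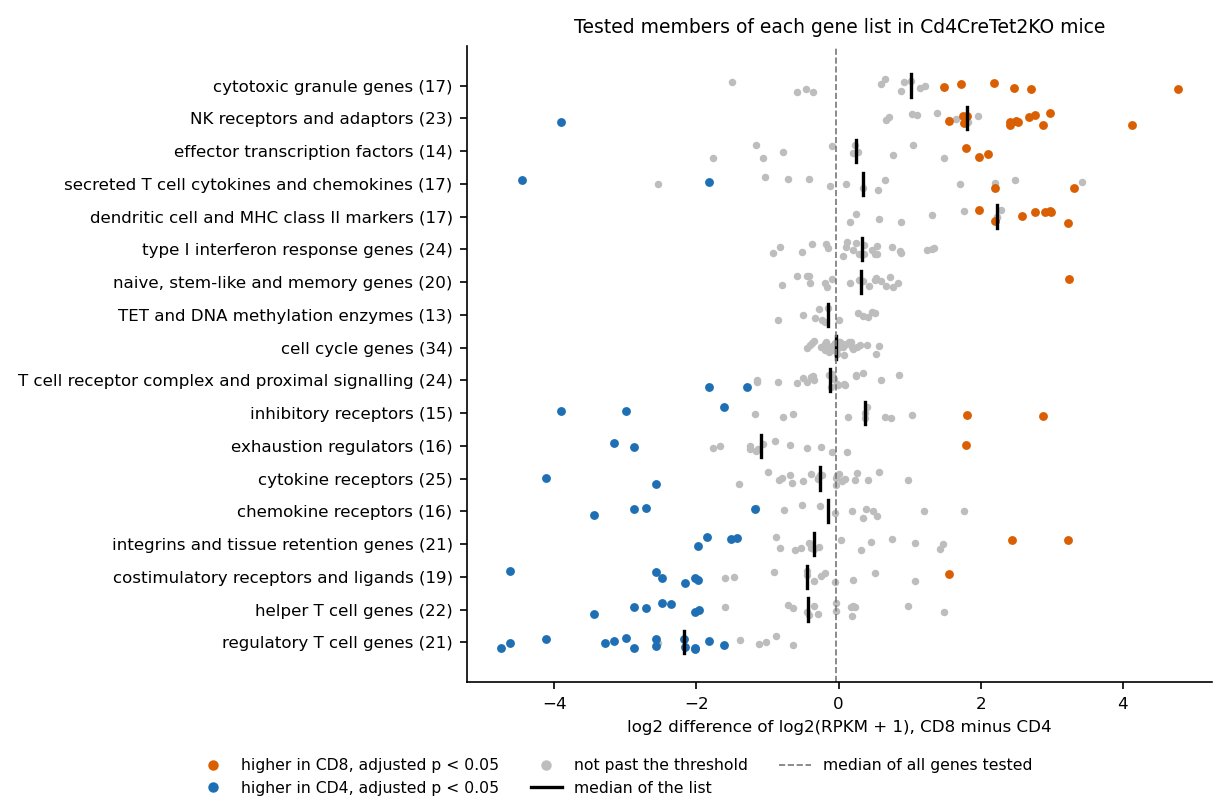
Difference of log2(RPKM + 1), CD8 minus CD4, of every tested member of each gene list, 1 point per gene, with called genes coloured and the number tested in parentheses. Regulatory T cell genes all lie below 0 with a median of -2.17, and NK receptors have a median of 1.81.

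Inhibitory receptors did not share a direction. Of 16 listed genes 15 were tested, 2 were called higher in CD8 (Cd160 and Cd244a) and 3 in CD4 (Ctla4, Tigit and Klrg1), with a median of 0.37. Pdcd1, which encodes PD-1, stood at 27.8, 9.08, 13.3 and 38.4 RPKM in CD8 replicates 1 to 4 and 39.2, 59.0 and 37.8 RPKM in CD4 replicates 1 to 3. CD8 replicate 4 reached the CD4 range, the groups overlapped, and the difference was -1.18 (SE 0.45, limma adjusted p = 0.278). Lag3, a receptor of MHC class II, stood at 28.7, 9.32, 11.0 and 16.9 RPKM in CD8 and 9.32, 5.75 and 5.91 RPKM in CD4 libraries. CD8 replicate 1 was the highest and replicate 2 was level with the highest CD4 library, with a difference of 1.03 (SE 0.57, limma adjusted p = 0.66). Havcr2, which encodes TIM-3, stood at 29.7, 8.81, 5.68 and 17.0 RPKM in CD8 and 8.62, 17.5 and 10.3 RPKM in CD4 libraries. It spread as widely within the CD8 libraries as between cell types, its difference was 0.13 (SE 0.54, limma adjusted p = 0.9995), and the sign turned without CD8 replicate 1 (-0.25) or CD4 replicate 1 (-0.06).

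Tigit, which binds CD155 in competition with CD226, stood at 70.8, 123 and 61.6 RPKM in CD4 and 31.8, 13.5, 27.3 and 37.8 RPKM in CD8 libraries. CD4 replicate 2 was the highest, the groups did not overlap, and the difference was -1.62 (SE 0.40, limma adjusted p = 0.0345). That call was lost with any of several libraries left out (limma adjusted p of 0.0549 to 0.276 without any 1 of CD8 replicates 1, 2 and 3 or any 1 of CD4 replicates 1, 2 and 3), and the limma adjusted p was 0.352 without CD8 replicates 1 and 2 and 0.295 with the animal as a block. Cd244a, the receptor 2B4, stood at 6.17, 6.28, 2.62 and 2.91 RPKM in CD8 and 0.484, 0.487 and 0.502 RPKM in CD4 libraries, higher in CD8 replicates 1 and 2. It differed by 1.81 (limma adjusted p = 0.011), with a limma adjusted p of 0.0539 to 0.0615 without any 1 of CD4 replicates 1, 2 and 3. Without CD8 replicates 1 and 2, 1 receptor was called in each direction. Once animals were blocked, 2 of the 5 called receptors kept their call, and the others had limma adjusted p from 0.0948 to 0.456.

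Factors linked with exhaustion were mostly higher in CD4 libraries but seldom called. All 16 were tested, 1 was called higher in CD8 (Eomes) and 2 in CD4 (Maf and Ikzf2, both described above as helper or regulatory genes). Their median difference was -1.10, beside 0.17 in Tet2fl/fl and 0.11 in Vav1CreTet2KO mice. It was negative for 14 of the 16, and for 5267 of all 9719 tested genes. When CD8 replicates 1 and 2 were left out, the median difference of the 16 was -0.56, and Maf and Ikzf2 were called while Eomes was not (limma adjusted p = 0.0542). Tox, a driver of the exhausted state, stood at 13.1, 14.9 and 11.0 RPKM in CD4 and 8.52, 5.36, 5.70 and 6.61 RPKM in CD8 libraries. Every CD4 library lay above every CD8 library, yet the difference of -0.90 (SE 0.32, limma adjusted p = 0.22) was not called. Nr4a1, an immediate target of T cell receptor signals, stood at 202, 149.5 and 204 RPKM in CD4 and 57.6, 34.6, 96.1 and 176 RPKM in CD8 libraries, with CD8 replicate 4 inside the CD4 range. Its relatives Nr4a2 and Nr4a3 stood at 14.6, 4.75, 30.6 and 93.2 and at 26.5, 7.24, 51.3 and 136 RPKM in the CD8 libraries, so that replicate 4 was the highest for each of the 3 genes. Tnfaip3, a brake on NF-κB signals, stood at 326, 298 and 327 RPKM in CD4 and 57.8, 38.5, 183 and 230.0 RPKM in CD8 libraries, with a difference of -1.67 (limma adjusted p = 0.067).

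Chemokine receptors were called on the CD4 side alone, for 4 of 16 tested members, with a median of -0.16. Ccr4, a receptor for skin and tumour chemokines, stood at 11.8, 7.76 and 11.9 RPKM in CD4 and 0.145, 0.0383, 0 and 0 RPKM in CD8 libraries. It was 0 or close to it in all CD8 libraries, and the difference was -3.44 (SE 0.33, limma adjusted p = 4.69e-06). Ccr8, a receptor of tumour-resident regulatory T cells, stood at 20.8, 40.8 and 28.7 RPKM in CD4 and 3.40, 2.62, 1.77 and 5.35 RPKM in CD8 libraries and differed by -2.88 (SE 0.45, limma adjusted p = 0.000857). Ccr6, which follows CCL20, stood at 17.5, 12.9 and 11.5 RPKM in CD4 and 2.90, 0.788, 0.923 and 0.918 RPKM in CD8 libraries, with CD8 replicate 1 apart from the rest. Its difference was -2.71 (limma adjusted p = 0.0164), with a limma adjusted p of 0.0577 to 0.092 without CD8 replicate 2 or any 1 of CD4 replicates 1, 2 and 3. Cxcr4, which follows CXCL12, differed by -1.18 (limma adjusted p = 0.0213), with a limma adjusted p of 0.0505 to 0.134 without any 1 of CD8 replicates 2 and 4 or any 1 of CD4 replicates 1, 2 and 3. Cxcr6, a receptor of tissue-resident T cells, stood at 36.2, 37.1, 20.5 and 31.1 RPKM in CD8 and 13.3, 9.19 and 16.4 RPKM in CD4 libraries. Every CD8 library lay above every CD4 library, but the difference of 1.21 (limma adjusted p = 0.191) was not called. After omission of CD8 replicates 1 and 2, 2 receptors were called. With the animal as a block 1 of 4 was, and the others had limma adjusted p from 0.112 to 0.404.

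Integrins and genes of tissue retention were called in both directions, 2 higher in CD8 (Itga1 and Itgax) and 4 higher in CD4 of 21 tested, with a median of -0.35. Itgax is also counted among the called dendritic cell genes and described with them below. Itga1, the collagen-binding CD49a of resident CD8 cells, stood at 7.22, 8.77, 4.12 and 9.72 RPKM in CD8 and 0.381, 0.206 and 1.02 RPKM in CD4 libraries and differed by 2.44 (SE 0.46, limma adjusted p = 0.00519). Itgb3, a partner chain of the vitronectin receptor, stood at 18.4, 17.8 and 17.0 RPKM in CD4 and 5.46, 2.85, 2.10 and 5.50 RPKM in CD8 libraries, nearly equal among CD4 libraries, and differed by -1.98 (SE 0.31, limma adjusted p = 0.000986). Itgav, its alpha chain, stood at 20.7, 42.3 and 26.4 RPKM in CD4 and 10.2, 5.71, 4.34 and 10.3 RPKM in CD8 libraries, with CD4 replicate 2 the highest. It differed by -1.84 (limma adjusted p = 0.00747), with a limma adjusted p of 0.0868 without CD4 replicate 2. Itga3 and Rgs2 were also called higher in CD4, at -1.43 and -1.51. Their limma adjusted p was 0.0532 to 0.075 without any 1 of CD4 replicates 1 and 3 for Itga3 and 0.0514 to 0.0918 without any 1 of CD8 replicates 1 and 2 or any 1 of CD4 replicates 1, 2 and 3 for Rgs2. Cd69, a marker of activation and residency, stood at 86.4, 64.6 and 99.7 RPKM in CD4 and 27.4, 34.6, 103 and 106 RPKM in CD8 libraries, with CD8 replicates 1 and 2 below the other libraries, and was not called (-0.53 (limma adjusted p = 0.937)). In the fit lacking CD8 replicates 1 and 2, 1 gene was called in each direction. Under the block for animal, none of the 6 was called, at limma adjusted p from 0.0603 to 0.313.

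Genes of the T cell receptor complex were called for 2 of 24 tested members, both higher in CD4, with a median of -0.12. Cd5, a negative regulator of receptor signals, stood at 37.2, 33.8 and 42.3 RPKM in CD4 and 6.50, 8.197, 13.5 and 13.4 RPKM in CD8 libraries and differed by -1.82 (SE 0.26, limma adjusted p = 0.000448). Cd2, the receptor of CD48, stood at 182.5, 172 and 149 RPKM in CD4 and 51.6, 69.2, 89.4 and 68.0 RPKM in CD8 libraries and differed by -1.28 (SE 0.22, limma adjusted p = 0.00204). In the fit with a block for animal, their limma adjusted p was 0.0948 and 0.105. Without CD8 replicates 1 and 2, Cd2 had a limma adjusted p of 0.0568. Cytokine receptors were called for 2 of 25 tested members, Il2ra and Il1rl1, and Il7r, the interleukin-7 receptor, stood at 76.4, 93.2 and 58.6 RPKM in CD4 and 34.5, 59.8, 43.5 and 36.7 RPKM in CD8 libraries (-0.80 (limma adjusted p = 0.384)). When CD8 replicates 1 and 2 were left out, Il2ra had a limma adjusted p of 0.0738.

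Genes of naive, stem-like and memory T cells gave 1 call in 20 tested, with a median of 0.32, beside -1.10 in Tet2fl/fl and -0.15 in Vav1CreTet2KO mice. That gene was Ly6c2, a surface antigen of memory CD8 cells and monocytes, at 56.2, 48.4, 54.3 and 22.1 RPKM in CD8 and 10.2, 1.10 and 3.11 RPKM in CD4 libraries. Its difference was 3.25 (SE 0.57, limma adjusted p = 0.00254), and the limma adjusted p was 0.0675 without CD8 replicates 1 and 2 and 0.355 with the animal as a block. Tcf7, the factor TCF-1 of stem-like T cells, stood at 62.4, 114, 181 and 75.7 RPKM in CD8 and 118, 38.2 and 70.7 RPKM in CD4 libraries. CD8 replicate 3 was the highest, the groups overlapped, and the difference was 0.53 (SE 0.52, limma adjusted p = 0.9995). Ccr7, which guides naive cells into lymph nodes, had a difference of 0.35 (limma adjusted p = 0.9995).

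Further lists held no gene called by limma. Of all 9719 tested genes, 944 had an unadjusted p under 0.05. Over 24 tested genes of the type I interferon response the median was 0.32, with 4 at an unadjusted p under 0.05, 0 called by edgeR and 1 by DESeq2. Cell cycle genes had a median of -0.04 over 34 members, with 0 at an unadjusted p under 0.05 and 0 called by edgeR or DESeq2. The 13 tested TET and DNA methylation enzymes had a median of -0.15, with 1 at an unadjusted p under 0.05, 0 called by edgeR and 1 by DESeq2. For 12 heat shock genes the median was 0.01, with 0 at an unadjusted p under 0.05 and 0 called by either count tool. In the methylation list Tet3, a relative of Tet2, stood at 12.7, 13.8 and 14.1 RPKM in CD4 and 11.7, 10.1, 11.7 and 11.6 RPKM in CD8 libraries, and Dnmt1, the maintenance methyltransferase, at 27.4, 22.4 and 19.96 RPKM in CD4 and 22.4, 19.8, 23.8 and 27.2 RPKM in CD8 libraries. Mbd1, which binds methylated DNA, stood at 8.66, 8.35 and 8.56 RPKM in CD4 and 4.73, 4.32, 3.33 and 4.79 RPKM in CD8 libraries. Every CD4 library lay above every CD8 library, and the difference was -0.86 (limma adjusted p = 0.14).

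Dendritic cell and MHC class II genes were higher in CD8 libraries, although T cells of mice hardly make these proteins. All 17 were tested, 8 were called, all higher in CD8, and 13 had every CD8 library above every CD4 library. Over all tested genes those shares were 0.977% and 6.68%. The median was 2.22, beside 0.02 in Tet2fl/fl and 1.42 in Vav1CreTet2KO mice. H2-Ab1, the beta chain of I-A, stood at 817, 349, 101 and 212 RPKM in CD8 replicates 1 to 4 and 50.7, 17.6 and 44.5 RPKM in CD4 replicates 1 to 3. CD8 replicate 1 was the highest and replicate 3 the lowest, the groups did not overlap, and the difference was 2.99 (SE 0.73, limma adjusted p = 0.0322). Ciita, the activator of class II genes, stood at 17.5, 6.83, 2.38 and 4.71 RPKM in CD8 and 0.869, 0.385 and 0.540 RPKM in CD4 libraries, in the same order, and differed by 2.20 (limma adjusted p = 0.0281). Itgax, the integrin chain CD11c, which activated CD8 cells can also carry, stood at 33.7, 13.8, 9.38 and 14.3 RPKM in CD8 and 1.44, 0.342 and 0.811 RPKM in CD4 libraries and differed by 3.22 (SE 0.42, limma adjusted p = 0.000175).

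Clec9a and Xcr1, which define conventional dendritic cells of type 1, lay in the same order without being called. Batf3, a factor of dendritic cells described above, was called, with CD8 replicates 1 and 4 the highest. Clec9a, which recognises dead cells, stood at 21.6, 8.37, 1.86 and 7.38 RPKM in CD8 and 1.27, 0.198 and 0.889 RPKM in CD4 libraries and Xcr1, the receptor of XCL1, at 16.1, 4.76, 1.43 and 4.22 RPKM in CD8 and 0.938, 0.509 and 0.835 RPKM in CD4 libraries, with limma adjusted p of 0.077 and 0.125. CD8 replicate 1 was the highest CD8 library in 8 of the 8 called genes of the list, and replicates 1 and 2 both lay above 3 and 4 in 6 of the 8. For comparison, both lay above 3 and 4 in 33 of the 95 genes called higher in CD8 and in 2142 of the 9719 tested genes. The CD3ε gate should remove dendritic cells, and the part of such cells in these values was not tested. After omission of CD8 replicates 1 and 2, 2 of the list were called and the median was 1.51. Once animals were blocked, none of the 8 was called, at limma adjusted p from 0.0603 to 0.819. In the other genotypes the summed level was 95.93 to 536.2 RPKM in CD8 Tet2fl/fl, 1228 to 3472 RPKM in CD8 Vav1CreTet2KO, 118.4 to 275.9 RPKM in CD4 Tet2fl/fl and 534.4 to 1011 RPKM in CD4 Vav1CreTet2KO libraries.

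Some genes outside the lists had differences among the widest on the CD8 side and moved with these markers. Plbd1, a phospholipase-like lysosomal protein of myeloid cells, stood at 106, 40.9, 13.8 and 20.4 RPKM in CD8 and 0.719, 0.141 and 0.760 RPKM in CD4 libraries and differed by 4.51 (limma adjusted p = 0.00141). Naaa, a lysosomal amidase of dendritic cells, stood at 109, 47.0, 13.8 and 34.05 RPKM in CD8 and 1.03, 1.21 and 1.19 RPKM in CD4 libraries and differed by 4.25 (limma adjusted p = 0.000624). Wdfy4, needed for cross-presentation, stood at 55.9, 24.3, 7.18 and 19.4 RPKM in CD8 and 1.89, 1.41 and 0.823 RPKM in CD4 libraries and differed by 3.25 (limma adjusted p = 0.00234). In all 3 the CD8 libraries held the order 1, 2, 4, 3 of the summed dendritic cell markers. In the fit lacking CD8 replicates 1 and 2, the limma adjusted p was 0.0512 for Plbd1, 0.0245 for Naaa and 0.0784 for Wdfy4. None of the 3 was called with the animal as a block, at limma adjusted p of 0.136, 0.105 and 0.326.

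The same contrast could be taken in the other genotypes, from libraries in the same fit. Whether the gap between the cell types differed from that of another genotype was tested as the difference of the differences. Tet2fl/fl mice carry no Cre and Vav1CreTet2KO mice carry another, so Tet2 loss and the Cre transgene cannot be told apart here. Against Tet2fl/fl, 4 of 9719 genes passed (0.0412%), and against Vav1CreTet2KO 2 passed (0.0206%), while 507 and 757 had an unadjusted p under 0.05. Without CD8 replicates 1 and 2, each interaction yielded 2 called genes. Hence the lineage genes above can be described side by side but not called different between genotypes. Gzma differed by 4.78 in Cd4CreTet2KO, 5.58 in Tet2fl/fl and 4.505 in Vav1CreTet2KO mice. Foxp3 differed by -4.75, -4.06 and -3.56 in that order.

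**Figure D4:**
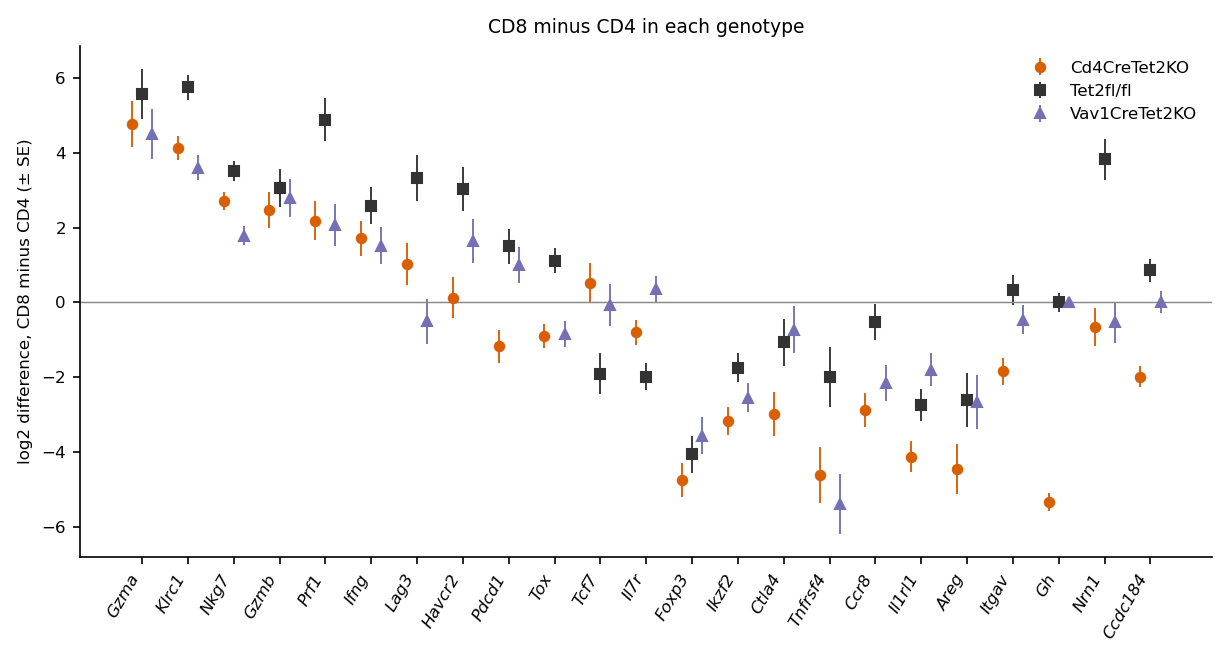
Difference of log2(RPKM + 1), CD8 minus CD4, with its SE, of 23 genes in the 3 genotypes. Gzma lies above 0 and Foxp3 below 0 in all 3, whereas Gh departs from 0 only in Cd4CreTet2KO mice, at -5.33.

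Pdcd1, Lag3 and Havcr2, fixed by name among the 15 tested inhibitory receptors, had no called interaction. Pdcd1 differed by -1.18 in Cd4CreTet2KO and 1.5 in Tet2fl/fl mice, an interaction of -2.67 (SE 0.65, limma adjusted p = 0.391). In Tet2fl/fl its levels were 127, 91.5 and 105 RPKM in CD8 and 46.4, 34.6 and 31.8 RPKM in CD4 libraries. Lag3 differed by 1.03 and 3.33, an interaction of -2.30 (SE 0.83, limma adjusted p = 0.752). Havcr2 differed by 0.13 and 3.04, an interaction of -2.90 (SE 0.79, limma adjusted p = 0.479). For Tox the interaction was -2.02 (SE 0.47, limma adjusted p = 0.374) and for Tcf7 2.43 (SE 0.77, limma adjusted p = 0.611), of opposite sign. None of these 5 was called, so a change of the gap in them was not detected at this number of animals.

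Gh, which encodes growth hormone and is textbook-known from the pituitary, was the most marked exception. It stood at 37.2, 50.7 and 48.5 RPKM in CD4 and 0.626, 0.0589, 0 and 0 RPKM in CD8 libraries, and at 0 in all 12 libraries of the other genotypes. All 3 CD4 Cd4CreTet2KO libraries were high, CD8 replicates 1 and 2 held a trace, and CD8 replicates 3 and 4 none. The difference between the cell types was -5.33 (SE 0.24, limma adjusted p = 3.11e-11), and the interaction was -5.33 (SE 0.36, limma adjusted p = 5.82e-08) against Tet2fl/fl and the same size against Vav1CreTet2KO. Gh passed the filter through the 3 CD4 libraries alone, and the 12 libraries at 0 add no spread to the fit. These SE and adjusted p therefore do not measure the spread between animals in the other genotypes. The call between the cell types held with the animal as a block (limma adjusted p = 5.90e-05) and without CD8 replicates 1 and 2 (3.18e-09). The count tools differed: between the cell types the adjusted p was 0.00874 with edgeR and 0.536 with DESeq2, and the interaction, set against groups with no reads, was called by neither (adjusted p of 1.0 with both edgeR and DESeq2 against Tet2fl/fl, and of 1.0 with edgeR and 0.878 with DESeq2 against Vav1CreTet2KO).

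Ccdc184, a coiled-coil protein gene, stood at 4.84, 3.15 and 3.37 RPKM in CD4 and 0.0453, 0.0398, 0.263 and 0.495 RPKM in CD8 libraries. In Tet2fl/fl mice it stood at 1.95, 1.21 and 2.14 RPKM in CD4 and 5.95, 3.35 and 3.02 RPKM in CD8 libraries, so that the order of the cell types was the opposite. The interaction was -2.84 (SE 0.41, limma adjusted p = 0.00702). Ccdc184 passed the filter through the 3 CD4 Cd4CreTet2KO libraries alone, which this adjusted p does not account for. Without the filter the limma adjusted p was 0.00706. In Vav1CreTet2KO mice no library of either cell type was above 0.3328 RPKM. The interaction of Ccdc184 was not called without CD8 replicates 1 and 2 (limma adjusted p = 0.121), with the animal as a block (0.277), with a pseudocount of 0.1 (0.36), with RPKM rescaled to a common total per library (0.0887), or by edgeR (0.56) or DESeq2 (0.157).

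Nrn1, which encodes neuritin, a factor also made by anergic and regulatory T cells, was level between the cell types here, at 8.47, 2.02, 5.26 and 9.31 RPKM in CD8 and 11.2, 7.51 and 9.55 RPKM in CD4 libraries. In Tet2fl/fl mice it stood at 42.3, 16.3 and 25.6 RPKM in CD8 and 1.27, 1.601 and 0.161 RPKM in CD4 libraries. The control CD8 libraries were all above the control CD4 libraries. In Vav1CreTet2KO mice Nrn1 stood at 2.149, 9.007 and 1.494 RPKM in CD8 and 5.775, 8.817 and 2.582 RPKM in CD4 libraries. Its difference there was -0.53, and the interaction against these mice was -0.12 (limma adjusted p = 0.976) and not called. Against Tet2fl/fl the interaction was -4.49 (SE 0.75, limma adjusted p = 0.0267), with a Cd4CreTet2KO difference of -0.65 and a Tet2fl/fl difference of 3.84. This call on Nrn1 was lost, at limma adjusted p from 0.0522 to 0.134, without CD8 replicate 2 or 3 or any 1 of CD4 replicates 1, 2 and 3. It was also lost without CD8 replicates 1 and 2 together (0.137), with the animal as a block (0.0956), with a pseudocount of 0.1 (0.0948), without a filter (0.0711) and by edgeR (0.0558).

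The pseudogene Rps18-ps6 stood at 72.8, 55.2, 169 and 109 RPKM in CD8 and 7.54, 3.69 and 1.54 RPKM in CD4 libraries. Its level in the CD4 Cd4CreTet2KO libraries was below that of the other 16 libraries, the lowest of which was CD8 replicate 2 of the same genotype. The interaction was 4.21 (SE 0.71, limma adjusted p = 0.0267) against Tet2fl/fl and 4.26 (SE 0.71, limma adjusted p = 0.0458) against Vav1CreTet2KO. Against Tet2fl/fl the call was lost, at limma adjusted p from 0.053 to 0.139, without CD8 replicate 3 or 4 or CD4 replicate 2 or 3, and the limma adjusted p was 0.0633 with the animal as a block. Against Vav1CreTet2KO it was lost, at limma adjusted p from 0.0755 to 0.17, without CD8 replicate 1, 3 or 4 or CD4 replicate 2 or 3, and the limma adjusted p was 0.0575 with the animal as a block and 0.195 without the shallowest library of the series (CD4 Vav1CreTet2KO replicate 1). Both calls were also lost with a pseudocount of 0.1 (limma adjusted p = 0.0585 and 0.0762) and without a filter (0.0711 and 0.14), and that against Vav1CreTet2KO with array-quality weights (0.0642). A processed copy of a ribosomal protein gene can share reads with its parent, so its level is uncertain.

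**Figure D5:**
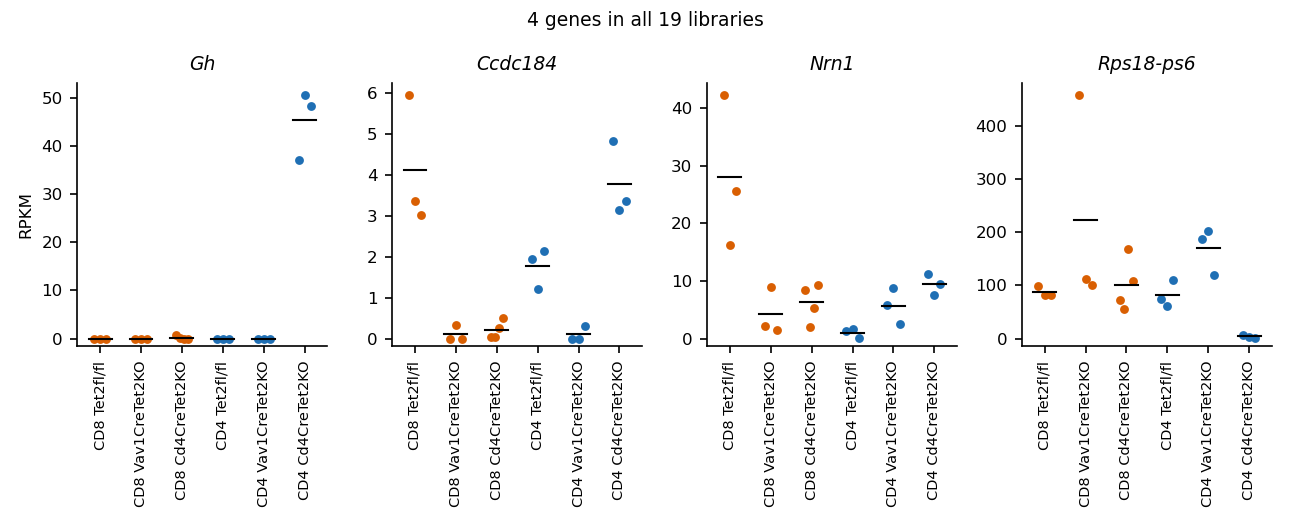
RPKM of Gh, Ccdc184, Nrn1 and Rps18-ps6 in all 19 libraries by cell type and genotype, 1 point per library, with a line at the mean of each group. Gh is at 37.2 to 50.7 RPKM in the CD4 Cd4CreTet2KO libraries and at 0 in all Tet2fl/fl and Vav1CreTet2KO libraries.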

How the data were processed

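The labels place 19 libraries in 6 groups, and the 7 of Cd4CreTet2KO were compared. For each cell type the authors deposited a table of 25639 genes: counts and RPKM for CD4, RPKM alone for CD8, per the file headers. GRCm38 and mm10 appear in the submitters' processing notes. The aligner, the counter and the build of the tables' coordinates remain not given in the sources used here. A further 18 per-sample columns were not used.

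Because 1 table lacks counts, limma 3.58.1 (R 4.3.3, trend, robust) was run on log2(RPKM + 1) of all 19 libraries, with Benjamini-Hochberg adjustment over 9719 genes (minimum 1 RPKM in 3 of the 7 libraries). CD8 RPKM times gene length gave whole reads for 134905 of 134905 values (within 0.05). These reads and the CD4 counts gave the depths and entered edgeR 4.0.16 and DESeq2 1.42.0 as alternatives. The method was tested on simulated data with a shared spread and no effect of animal, which does not cover differences in quality or in other cell types between libraries. Library numbers in the labels pair the cell types of an animal. Deviations from group means correlated at 0.047 and 0.067 in the 2 pairs compared here and from -0.061 to 0.395 over the 8 pairs of the series.

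Members and lists were chosen with earlier results of these data known. Named genes were Tet2, the sort markers, a short list of lineage, effector and exhaustion genes (some not reported here), up to 4 called members per list and direction by smallest p, the 10 called genes of largest change per direction without overlap (pseudogenes, unnamed models and receptor segments left out), and called interactions. Other list members, Rps18-ps6 and the genes in the closing section were chosen after their values were seen.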

Additional observations from a re-analysis of the deposited data

Results flagged for a closer look

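In 4 of 83 groups of 4 CD8 libraries examined, 1 library stood far from the rest, as measured by its gap to the nearest library over the range of the group. Chance gives about 1 in 20. The ratio was 0.922 for Rora, with CD8 replicate 4 highest, 0.936 for Ccr6, 0.906 for Gh and 0.893 for the summed liver, tumour and stromal markers. CD8 replicate 1 was highest in those last 3. The marker sum was 52.02, 22.95, 21.07 and 19.47 RPKM in CD8 replicates 1 to 4.

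By limma's test of the difference itself, the gap between CD8 and CD4 departed from that in Tet2fl/fl mice for Rps18-ps6 (4.21 on the log2 scale), Gh (-5.33), Nrn1 (-4.49) and Ccdc184 (-2.84). It departed from that in Vav1CreTet2KO mice for Rps18-ps6 (4.26) and Gh (-5.33). Those of Gh were called in every limma fit run but by neither count tool, and those of Rps18-ps6, Nrn1 and Ccdc184 were lost in the settings given above.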

How the results depend on the processing

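The 208 calls numbered 371 with DESeq2, 181 with edgeR, 1249 with array-quality weights, 530 with only the 7 libraries, 76 without CD8 replicates 1 and 2, and 101 to 219 with single libraries left out. With the animal as a fixed replicate block they numbered 43, of which 41 were among the 208, and with the animal as a random block 248. The unfiltered fit gave 207, of which 35.3% were higher in CD8, against 45.7% of the 208. In settings chosen after seeing the data, 326 were called without the shallowest library (CD4 Vav1CreTet2KO replicate 1) and 551 by edgeR on the 7 libraries. The 4 interactions against Tet2fl/fl numbered 2 with a pseudocount of 0.1, 2 without a filter, 61 with DESeq2, 1 with the replicate block, 121 with weights, 2 without CD8 replicates 1 and 2, and 2 to 4 with single libraries left out. The 2 against Vav1CreTet2KO numbered 1 with a pseudocount of 0.1, without a filter, with the replicate block, with weights or without the shallowest library, 24 with DESeq2, and 1 to 2 with single libraries left out. The cause was not tested. Of 57 named genes that were called, 57 kept their direction in all 21 settings, 17 were called in every one and 42 in every leave-one-out fit. Reversed signs were confined to 4 genes without a call. With single libraries left out, the log2 difference ran from -0.341 to 0.0302 for Tet2 (above 0 without CD8 replicate 3 or CD4 replicate 2), from -0.0548 to 0.477 for Bcl6 (below 0 without CD8 replicate 1) and from -0.254 to 0.48 for Havcr2 (below 0 without CD8 replicate 1 or CD4 replicate 1). Under the replicate block Runx3 gave -0.0155 and Bcl6 -0.214. Array-quality weights gave -0.0519 for Bcl6 and -0.00597 for Havcr2, and leaving out CD8 replicates 1 and 2 gave -0.0861 and -0.2. Among genes described without a limma call, edgeR and DESeq2 called Tbx21, Ifng, Capg and Ccl3, and DESeq2 but not edgeR called Ccl1, Ccl4, Cxcr6, Lyz2, Mbd1, Ncr1, Nt5e, Stx11, Tnfrsf1b and Xcr1. The 6 called interactions kept their direction in every setting. Only 2 animals inform the block, which limits its precision.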

Other observations

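Of the 208 called genes 139 belonged to none of the lists, and the following were chosen after their values were seen. Metabolic and tissue genes were among those higher in CD4 cells. Ass1, which makes argininosuccinate on the way to arginine, stood at 59.4, 73.5 and 61.3 RPKM in CD4 and 19.8, 10.2, 8.05 and 7.16 RPKM in CD8 libraries, and the difference was -2.52 (SE 0.30, limma adjusted p = 4.91e-05). Pparg, a nuclear receptor of adipocytes and tissue regulatory T cells, stood at 2.94, 3.79 and 3.14 RPKM in CD4 and 0.228, 0.0265, 0 and 0 RPKM in CD8 libraries and differed by -2.01 (limma adjusted p = 0.0121). Dgat2, which makes triglycerides, stood at 4.79, 4.53 and 5.39 RPKM in CD4 and 0.369, 0.344, 0 and 0 RPKM in CD8 libraries and differed by -2.34 (limma adjusted p = 0.00018). In each of the 3 the groups did not overlap, and CD8 replicates 3 and 4 were the lowest or at 0. Itgb8, an integrin chain that frees active TGF-β, stood at 4.18, 5.18 and 5.93 RPKM in CD4 and 0.139, 0, 0.197 and 0.181 RPKM in CD8 libraries and differed by -2.43 (SE 0.37, limma adjusted p = 0.00066). Lamc1, a laminin chain, differed by -2.60 (limma adjusted p = 0.000175). The muscle gene Neb, which encodes nebulin, stood at 13.4, 42.2 and 17.7 RPKM in CD4 and 0.975, 0.510, 0.660 and 1.02 RPKM in CD8 libraries, with CD4 replicate 2 the highest, and differed by -3.67 (SE 0.47, limma adjusted p = 0.000122). With the animal as a block, the limma adjusted p was 0.00403 for Ass1, 0.0381 for Dgat2, 0.0301 for Lamc1 and 0.0241 for Neb, and 0.16 and 0.112 for Pparg and Itgb8.

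On the CD8 side, Adgrg5, an adhesion G protein-coupled receptor, stood at 8.94, 9.54, 11.8 and 12.1 RPKM in CD8 and 0.278, 0.163 and 0.677 RPKM in CD4 libraries and differed by 3.08 (SE 0.35, limma adjusted p = 2.88e-05). Cd7, an immunoglobulin-family receptor of T and NK cells, stood at 73.7, 54.6, 82.5 and 50.6 RPKM in CD8 and 11.1, 4.04 and 7.37 RPKM in CD4 libraries and differed by 3.03 (limma adjusted p = 0.000917). Epsti1, an interferon-induced gene, stood at 79.2, 93.6, 133 and 97.2 RPKM in CD8 and 34.4, 25.4 and 30.2 RPKM in CD4 libraries and differed by 1.70 (limma adjusted p = 0.00164), although 0 of the 24 tested interferon response genes were called by limma. Unlike the dendritic cell genes, these 3 were not highest in CD8 replicate 1. Their limma adjusted p with the animal as a block was 0.0196, 0.0381 and 0.0204.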
